A study of Homo sapiens with 6 samples.

Results

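The 7 CDK inhibitor genes are the message for the proteins that hold cyclin-dependent kinases in check: CDKN1A, CDKN1B and CDKN1C of the CIP/KIP group and CDKN2A, CDKN2B, CDKN2C and CDKN2D of the INK4 group. They were taken by gene symbol from a table of 60027 genes, in which each symbol had 1 row. Poly(A)-selected RNA was sequenced from NCI-H292, an established human lung mucoepidermoid carcinoma line, with 3 libraries labelled SH3PXD2A-AS1 knockdown and 3 labelled Negative control, which the series text calls vector control. SH3PXD2A-AS1 is a long noncoding RNA that the series title links to proliferation and cell cycle progression. No source used here gives the knockdown reagent, its delivery or the time of harvest. Nor does any say that a group's libraries are separate cultures, and p-values then measure the spread among these libraries alone, which may be technical. Of the 7 genes, 5 reached a mean of 1 TPM (length-scaled transcript level) and were tested.

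CIP/KIP proteins bind cyclin and kinase together and act broadly on the cyclin E-CDK2 and cyclin A-CDK2 complexes. INK4 proteins bind CDK4 and CDK6 alone and keep them from D cyclins, so that RB stays active and E2F target genes stay off. Much of the control of p27, the CDKN1B protein, lies in translation and ubiquitin-dependent turnover, which RNA levels do not show. CDKN2A and CDKN2B lie beside MTAP on chromosome 9, in a region often lost or silenced in lung cancers.

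Between 15432 and 15479 genes reached 1 TPM in control libraries and between 15720 and 15883 in knockdown libraries. TPM values keep no sequencing depth, so no counting interval can be given. SH3PXD2A-AS1 stood at 0.96, 0.75 and 0.51 TPM in control and at 0.37, 0.68 and 0.44 TPM in knockdown libraries. The groups overlapped (exact two-sided permutation p = 0.2, where 0.1 is the smallest this design allows), so the level of the targeted RNA does not by itself check the labels. All 7 epithelial markers were above 1 TPM, with a sum of 3609 to 3738 TPM in control and 4375 to 4571 TPM in knockdown libraries. Of 9 markers of leukocytes, endothelium and fibroblasts, CD68 and COL1A1 were above 1 TPM, PTPRC and LUM were listed at 0 in every library, and the sum was 56.7 to 62.8 TPM in control and 79.4 to 87.0 TPM in knockdown libraries.

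Knockdown cells had more CDKN1B message and slightly more CDKN1A message, while CDKN1C, CDKN2C and CDKN2D did not pass the test. CDKN1B rose to 145% of its control level and CDKN1A to 113%. CDKN2A and CDKN2B were at or near 0 in both groups. Thus 2 of the 5 tested members rose and the other 3 did not pass, where 14.8% of all 15755 tested genes were called in either direction, 11.3% as rises and 3.47% as falls (limma on log2(TPM + 1), adjusted p under 0.05). The median log2 fold change was 0.02 over the 5 members and 0.08 over all tested genes. After median ratio scaling 1 member, CDKN1B, was called, while 6.2% of all genes rose and 6.68% fell; 1 member was called in 12 of the 14 alternatives.

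**Figure D1:**
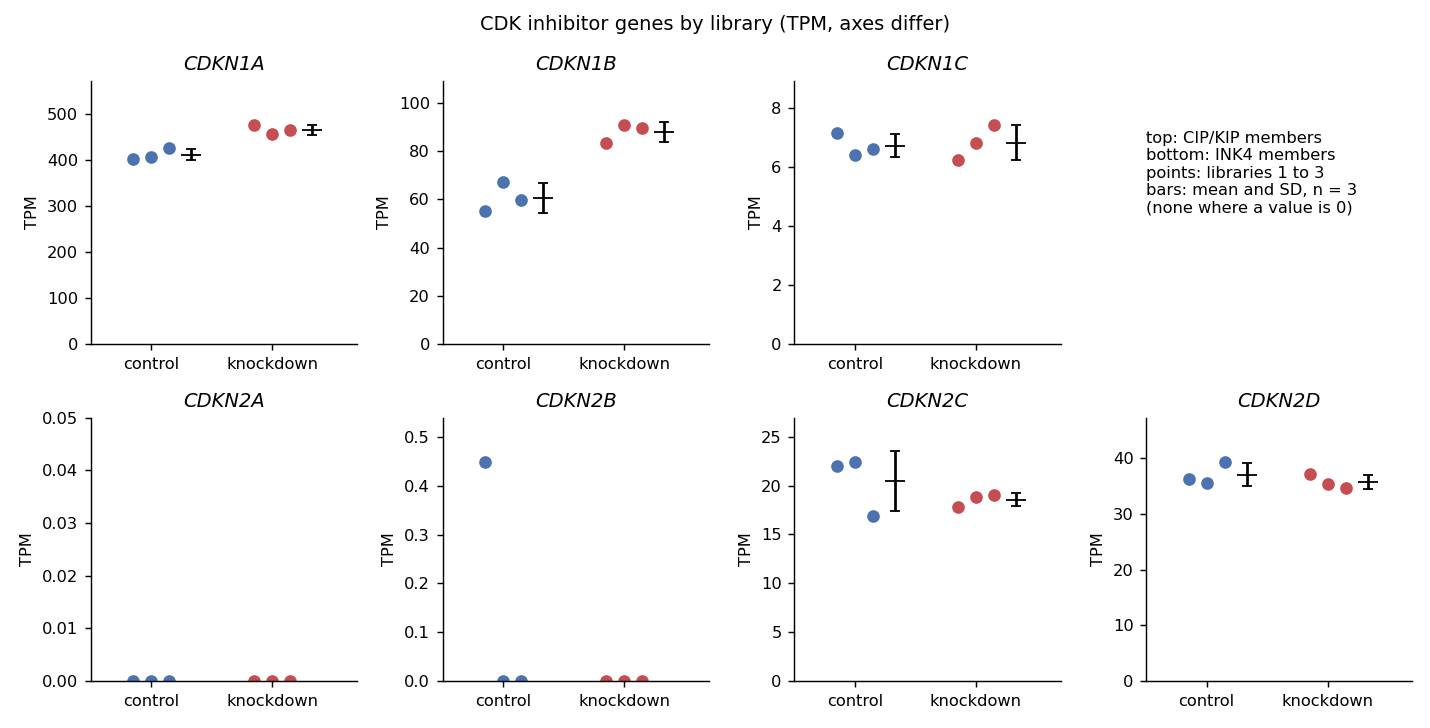
TPM of the 7 CDK inhibitor genes in each of the 3 control and 3 knockdown libraries (points), with mean and SD (n = 3) where no value is 0; each panel has its own linear axis from 0. CDKN1A and CDKN1B are higher in all 3 knockdown libraries, the groups overlap in CDKN1C, CDKN2C and CDKN2D, and CDKN2B is above 0 in 1 control library.

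CDKN1B encodes p27, which binds and inhibits cyclin E-CDK2 and also helps assemble D cyclin complexes. Its level was 55.08, 67.1 and 59.64 TPM in control libraries 1 to 3 and 83.27, 90.91 and 89.6 TPM in knockdown libraries 1 to 3. Every knockdown library lay above every control library, as in 26.8% of all tested genes (36.5% counting either direction). The means were 60.6 ± 6.07 and 87.9 ± 4.09 TPM (SD, n = 3). The log2 fold change was 0.53 (SE 0.08, 95% interval 0.34 to 0.72, limma adjusted p = 0.00748), and it remained called in all 14 alternatives.

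CDKN1A encodes p21, which inhibits CDK2 complexes and binds PCNA. It stood at 403.02, 407.43 and 427.48 TPM in control and at 477.05, 456.45 and 465.39 TPM in knockdown libraries. The knockdown libraries were again all higher, but the step was small, from 413 ± 13.0 to 466 ± 10.3 TPM (SD, n = 3). The log2 fold change was 0.18 (SE 0.04, 95% interval 0.08 to 0.27, limma adjusted p = 0.03). The call was lost in 12 of the 14 alternatives, among them each omission of 1 library (limma adjusted p from 0.0525 to 0.101), median ratio scaling (log2 fold change 0.07, limma adjusted p = 0.338) and rescaling without mitochondrial and ribosomal protein genes (0.10, limma adjusted p = 0.174). The mitochondrial genome's share of summed TPM was 10.7% to 10.9% in control and 7.20% to 7.40% in knockdown libraries, and it enters every TPM value.

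CDKN1C encodes p57, an imprinted inhibitor related to p27. Its level was 7.15, 6.4 and 6.6 TPM in control and 6.24, 6.81 and 7.42 TPM in knockdown libraries. The groups overlapped, and the 95% interval of the log2 fold change, -0.20 to 0.24, holds changes in either direction (limma adjusted p = 0.921).

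CDKN2D encodes p19-INK4D, an inhibitor of CDK4 and CDK6. It stood at 36.25, 35.48 and 39.41 TPM in control and at 37.15, 35.35 and 34.67 TPM in knockdown libraries. The groups overlapped. CDKN2D differed by -0.05 on the log2 scale (95% interval -0.20 to 0.09, SE 0.06, limma adjusted p = 0.623). It lay between -0.15 and -0.13 under the 3 other scalings and between -0.08 and -0.01 with 1 library left out, and it passed in none of these. CDKN2C encodes p18-INK4C, which binds CDK6 and CDK4. Its level was 22.03, 22.46 and 16.92 TPM in control and 17.84, 18.81 and 19.05 TPM in knockdown libraries. Control replicate 3 lay below all 3 knockdown libraries and the other control libraries above them. The log2 fold change was -0.12 (SE 0.11, 95% interval -0.39 to 0.14, limma adjusted p = 0.503). It was -0.25 without control replicate 3, -0.07 without control replicate 1 and -0.05 without control replicate 2, and none of these passed (limma adjusted p = 0.0932, 0.777 and 0.811). Under the 3 other scalings it lay between -0.22 and -0.20, also without a call.

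CDKN2A encodes p16-INK4A and, from another reading frame, ARF. CDKN2A was listed at 0 in all 6 libraries. CDKN2B encodes p15-INK4B, an inhibitor induced by TGF-beta in epithelial cells. CDKN2B was listed at 0.45 TPM in control replicate 1 and at 0 in the other 5 libraries. Neither gene reached the mean of 1 TPM needed for the test, and no fold is given against a group listed at 0. Listed zeros were common: 30849 of the 60027 genes were above 0 TPM in any library. Of 81 ribosomal protein genes 78 were above 0 in every library, and the other 3, RPL10L, RPL39L and RPL3L, are tissue-restricted copies. Ribosomal protein genes are highly expressed, so they cannot show whether a 0 for CDKN2A or CDKN2B is unusual.

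**Figure D2:**
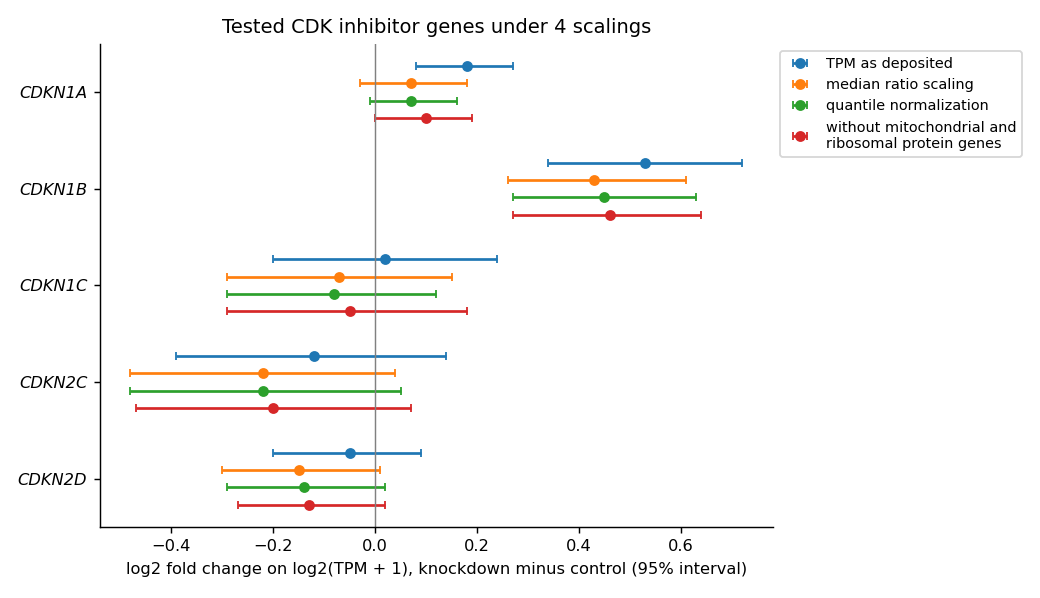
Log2 fold change (knockdown minus control, on log2(TPM + 1)) of the 5 tested members with 95% limma intervals under the deposited TPM and 3 other scalings. CDKN1B stays between 0.43 and 0.53, CDKN1A falls from 0.18 to between 0.07 and 0.10, and CDKN1C changes sign from 0.02 to as low as -0.08.

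The order of the levels of the 5 tested members was the same in both groups: CDKN1A, CDKN1B, CDKN2D, CDKN2C, then CDKN1C. CDKN2A and CDKN2B came last and were both listed at 0 in every knockdown library. No neighbours among the first 5 overlapped in TPM within either group. CDKN1A lay above 98.2% of tested genes, CDKN1B above 87.9%, CDKN2D above 76.0%, CDKN2C above 61.5% and CDKN1C above 35.1%. CDKN1A alone made up 75.0% to 77.7% of the summed TPM of the 7 genes in every library. The CIP/KIP genes together took 88.8% to 89.8% of that sum in control and 91.1% to 91.3% in knockdown libraries. CDKN1B accounted for 11.3% ± 1.04 in control and 14.3% ± 0.803 in knockdown libraries (SD, n = 3), and the sum itself was 538 ± 13.1 and 615 ± 6.65 TPM.

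A ratio within a library is the same whatever single factor scales that library. CDKN1B message per CDKN1A message was 0.137, 0.165 and 0.140 in control and 0.175, 0.199 and 0.192 in knockdown libraries. The groups did not overlap, and the mean log2 ratio differed by 0.36. CDKN2D per CDKN1A was 0.0900, 0.0871 and 0.0922 in control and 0.0779, 0.0774 and 0.0745 in knockdown libraries, again without overlap, with a log2 difference of -0.23. For each of these the exact two-sided permutation p was 0.1, the smallest that 3 against 3 libraries allow, and 0.2 after Benjamini-Hochberg adjustment over the 4 ratios. Taken alone, CDKN2D overlapped between groups and differed by -0.05 on the log2 scale, while CDKN1A, the denominator, differed by 0.18. Of all tested genes, each taken alone, 36.5% did not overlap. The ratios of CDKN1C and CDKN2C to CDKN1A overlapped between groups, with log2 differences of -0.16 and -0.31 (exact p = 0.3 for both). With 1 library left out they ranged from -0.22 to -0.08 for CDKN1C and from -0.46 to -0.22 for CDKN2C.

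**Figure D3:**
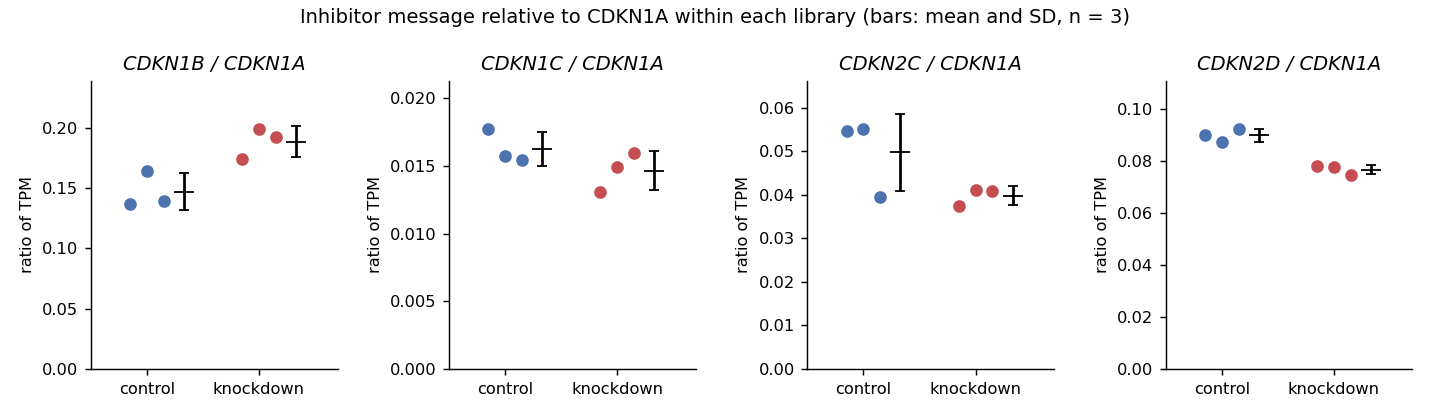
TPM of CDKN1B, CDKN1C, CDKN2C and CDKN2D divided by TPM of CDKN1A in the same library, for 3 control and 3 knockdown libraries (points) with mean and SD (n = 3). The CDKN1B ratio is higher and the CDKN2D ratio lower in every knockdown library, and the other 2 ratios overlap.

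Set against the message of their kinases, CDKN1B per CDK2 was 0.526 ± 0.0333 in control and 0.817 ± 0.0606 in knockdown libraries, and CDKN1A per CDK2 was 3.42 to 3.75 in control and 4.26 to 4.44 in knockdown libraries (ratios of TPM; SD, n = 3). Neither ratio overlapped between groups, and 36.5% of all tested genes, each taken alone, also did not overlap. CDK2 itself did not pass (log2 fold change -0.09, limma adjusted p = 0.312). The summed INK4 message, nearly all CDKN2C and CDKN2D, per CDK4 plus CDK6 message was 0.668 ± 0.0316 in control and 0.631 ± 0.0189 in knockdown libraries. These values overlapped, and the log2 fold change was -0.12 for CDK4 (not called) and 0.29 for CDK6 (called). These ratios are given as values without a test.

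The 2 genes called as rises differ in the bases just upstream of their starts, which are shown because both promoters are known for GC boxes bound by SP1. The CDKN1A call was lost in 12 of the 14 alternatives. The sequences are from RefSeq, GRCh38.p14, plus strand, 250 bases up to the annotated start, at chr6:36678464-36678713 for CDKN1A and chr12:12717118-12717367 for CDKN1B. Capitals mark matches to GGGCGG or CCAAT on either strand, and a run longer than 6 capitals holds overlapping or adjoining GGGCGG matches.
CDKN1A: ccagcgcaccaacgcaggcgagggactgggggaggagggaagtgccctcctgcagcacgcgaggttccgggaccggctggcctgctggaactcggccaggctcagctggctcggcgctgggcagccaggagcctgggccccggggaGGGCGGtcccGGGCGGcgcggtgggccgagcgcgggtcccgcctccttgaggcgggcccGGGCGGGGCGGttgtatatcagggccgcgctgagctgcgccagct
CDKN1B: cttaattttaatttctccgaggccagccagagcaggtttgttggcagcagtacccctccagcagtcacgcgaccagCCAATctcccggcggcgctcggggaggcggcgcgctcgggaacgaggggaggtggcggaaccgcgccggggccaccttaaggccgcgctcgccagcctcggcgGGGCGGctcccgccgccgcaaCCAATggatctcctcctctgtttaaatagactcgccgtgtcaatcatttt
The CDKN1A window held 4 GGGCGG matches and no CCAAT match, and the CDKN1B window held 1 GGGCGG and 2 CCAAT matches. Of 35116 windows of the same length in the table, 42.6% held GGGCGG and 32.0% held CCAAT. Neither window matched GTAAACA (FOXO, in 2.98% of windows) or TTTNGCGC (E2F, 1.51%), searched on both strands. GC content was 76.4% and 64.4%, against a median of 58.0% over all windows. Entries were found for 6 of the 7 members, all but CDKN1C. Members that were not called also held matches. The CDKN2D window held 2 GGGCGG and 1 CCAAT, and the CDKN2C windows held 0, 5 and 1 GGGCGG. Whether these matches bear on the change was not tested.

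CDKN1B is also a classic target of the microRNAs miR-221 and miR-222, and their primary transcript was measured. MIR222HG, whose annotated span on chromosome X (45745211 to 45770274, minus strand, GRCh38) contains both microRNAs, stood at 28.45, 28.78 and 27.38 TPM in control and at 50.09, 58.69 and 54.33 TPM in knockdown libraries. It rose without overlap (log2 fold change 0.92, SE 0.07, limma adjusted p = 0.000652), in the same direction as CDKN1B. Mature microRNAs were not measured. Their sequences from RefSeq (GRCh38.p14), with the seed of bases 2 to 8 in capitals, are shown because they share 1 seed.
hsa-miR-221-3p: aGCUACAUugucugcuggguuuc
hsa-miR-222-3p: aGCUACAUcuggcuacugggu
The longest annotated CDKN1B 3′ UTR in GENCODE 29 (1344 bases) held 2 matches to ATGTAGC, the complement of that seed. The matches begin at bases 201 and 274 after the stop codon and lie within chr12:12721213-12721235 and chr12:12721286-12721308 on the plus strand of GRCh38, with the match in capitals.
CDKN1B site 1: ctctaaaagcgttggATGTAGCa
CDKN1B site 2: tagtttttaccttttATGTAGCa
CDKN1C and CDKN2B held 1 match each and CDKN1A, CDKN2A, CDKN2C and CDKN2D none. Among 1216 3′ UTRs within 10% of the length of that of CDKN1B, 6.41% held at least 1 match. The same share was 3.49% for CDKN1C and 15.2% for CDKN2B, whose UTR has 3084 bases. It was 1.23% to 7.13% for the members without a match. A match describes letters and not a bound site.

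On chromosome 9 the low levels were not limited to CDKN2A and CDKN2B, a view chosen after their values were seen. CDKN2A (ENSG00000147889) lies at 21967753 to 21995301 and CDKN2B (ENSG00000147883) at 22002903 to 22009363, both on the minus strand of GRCh38. MTAP, a methionine salvage enzyme expressed in most tissues, lies at 21802543 to 21937651 and stood between 0 and 0.03 TPM in the 6 libraries. CDKN2B-AS1, the antisense RNA ANRIL that shares 341 exon bases with CDKN2A, stood between 0 and 0.14 TPM, and DMRTA1 between 0.02 and 0.1 TPM. The nearest coding genes with a mean of at least 1 TPM were KLHL9 on one side and CAAP1 on the other, 5505.3 kb apart, at means of 15.5 and 6.08 TPM in control libraries, with 18.7 TPM for KLHL9 in knockdown libraries and 6.73 to 7.22 TPM for CAAP1. Of the 14 coding genes between them, 6 are interferon genes, and CDKN2B had the highest value. Several of these genes are tissue-restricted, and DNA copy number and methylation were not measured.

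**Figure D4:**
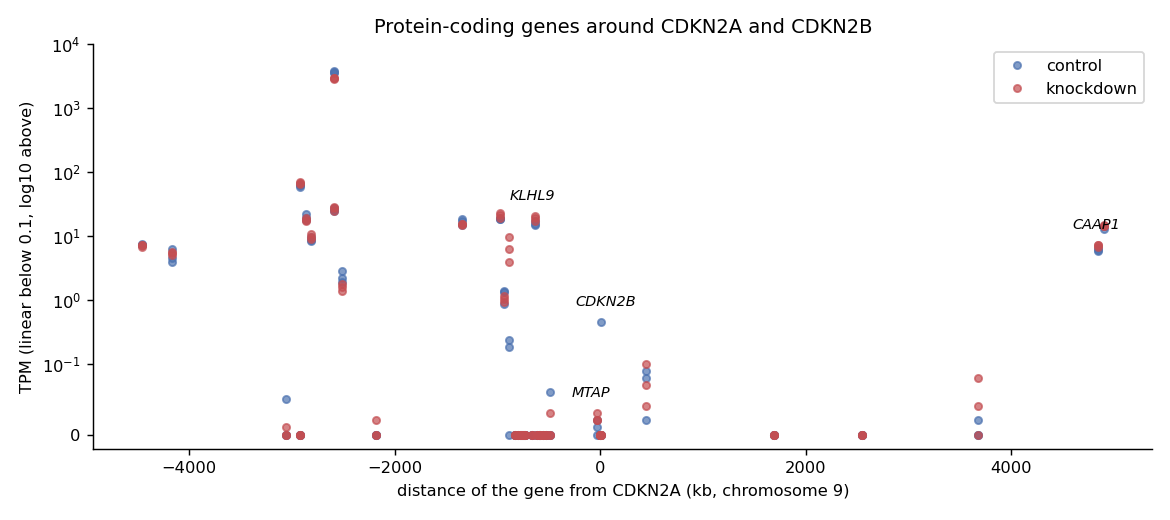
TPM of protein-coding genes within 5 Mb of CDKN2A on chromosome 9, by distance from CDKN2A in kb, with 1 point per library (3 control, 3 knockdown); the vertical axis is linear below 0.1 and log10 above. Between KLHL9 and CAAP1 no library exceeds 0.45 TPM, the value of CDKN2B in control replicate 1.

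Within 50 kb of CDKN1A, 1 of 7 other genes was tested. CDKN1A (ENSG00000124762, chromosome 6, 36676460 to 36687339, plus strand) shares 146 exon bases with DINOL, an antisense RNA that stood between 0.82 and 1.2 TPM in control libraries and between 0.79 and 1.64 TPM after knockdown (limma adjusted p = 0.668). No source used here says whether strand was kept, so reads of such a pair cannot be told apart. CDKN1B (ENSG00000111276, chromosome 12, 12715058 to 12722371, plus strand) holds the sense-intronic RNA AC008115.3 at 5.52 ± 0.740 and 5.17 ± 0.478 TPM. None of the 4 tested genes within 50 kb of CDKN1B was called; the others were GPR19, APOLD1 and AC008115.2 (limma adjusted p = 0.93, 0.308 and 0.442). Near CDKN1C (ENSG00000129757, chromosome 11, 2883213 to 2885773, minus strand), PHLDA2, an imprinted placental growth regulator, rose from 49.1 ± 5.18 to 74.1 ± 9.50 TPM (limma adjusted p = 0.0196), and SLC22A18 stood at 14.2 ± 1.96 and 18.7 ± 2.35 TPM and did not pass (limma adjusted p = 0.0918). CDKN1C itself overlapped between groups. FAF1, which starts 482 bases from CDKN2C (ENSG00000123080, chromosome 1, 50960745 to 50974633, plus strand) on the other strand, fell from 35.2 ± 2.22 to 29.4 ± 1.07 TPM (limma adjusted p = 0.0487). Near CDKN2D (ENSG00000129355, chromosome 19, 10566462 to 10569059, minus strand), SLC44A2 rose from 107 ± 2.54 to 168 ± 6.29 TPM and ATG4D from 26.87, 27.47 and 29.18 to 34.54, 35.17 and 35.42 TPM (limma adjusted p = 0.000538 and 0.0113), while KRI1 and AP1M2 were not called (limma adjusted p = 0.0795 and 0.751).

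Genes that act with or on the inhibitors moved in both directions. Of 112 tested genes in 7 lists of partners and regulators, 24 rose and 7 fell, together 27.7% of them. Over all 15755 tested genes 14.8% were called, 11.3% as rises and 3.47% as falls. By list the called share ran from 7.14% (Polycomb) to 53.85% (cyclins and kinases). It was 8.33% for other CDK inhibitors and modifiers and 16.7% for RB and E2F genes. Whether any list differs from all tested genes was not tested. The median log2 fold change of the 112 genes was 0.10, and 14 rose and 13 fell after median ratio scaling. The lists were drawn up with earlier results of these data known, so their counts are descriptions. In bulk libraries a change in the share of cells in a cycle phase and a change of message per cell cannot be told apart.

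Among 13 cyclins and kinases, 4 rose and 3 fell (2 and 3 after median ratio scaling). CCND2, which encodes a D cyclin, stood at 54.3 ± 0.982 TPM in control libraries and rose to 72.6 ± 2.84 TPM. CCND3, another D cyclin gene, went from 49.7 ± 3.68 to 65.7 ± 1.81 TPM, also a rise, and CCNB1 (cyclin B1) and CCNA2 (cyclin A2) fell by 0.71 and 0.56 on the log2 scale. CCND1 and CDK6 were also called as rises, with log2 fold changes of 0.25 and 0.29, and CDK1, the mitotic kinase, fell by 0.37 on the log2 scale. CDK4, bound like CDK6 by INK4 proteins, and CDK2, bound by CIP/KIP proteins, did not pass, with log2 fold changes of -0.12 (SE 0.06) and -0.09 (SE 0.06), nor did CCNE1 (0.21, SE 0.10). Of 12 tested RB and E2F genes 2 rose: E2F4, a repressor E2F, and E2F1, an activator, with log2 fold changes of 0.37 and 0.45 (SE 0.06 and 0.08). RB1 stood at 11.66, 13.06 and 12.20 TPM in control and at 11.62, 13.51 and 12.66 TPM in knockdown libraries, which overlap, and TFDP1 and E2F6 did not pass (limma adjusted p = 0.0811 and 0.178).

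Among 26 factors known to act on inhibitor promoters, 10 rose and the other 16 did not pass. KLF4, an activator of CDKN1A, rose from 12.6 ± 0.265 to 44.4 ± 2.75 TPM. IRF1, an interferon-responsive factor, rose from 108 ± 6.54 to 174 ± 9.16 TPM. KLF6, another activator of CDKN1A, rose from 29.8 ± 1.27 to 46.0 ± 2.13 TPM. FOXO3, an activator of CDKN1B named after its value was seen, rose by a log2 difference of 0.38 (SE 0.07, limma adjusted p = 0.0127). FOXO1 and FOXO4, in the same list, did not pass, with log2 fold changes of 0.06 and 0.10 (limma adjusted p = 0.722 and 0.481). After median ratio scaling 7 of the 26 rose and 2 fell.

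Of 15 RNA-binding factors and microRNA hosts, 5 rose and 1 fell (3 and 2 after median ratio scaling). Besides MIR222HG, MIR22HG, the host transcript of miR-22, rose with a log2 fold change of 0.45. PCBP2 fell by 0.16 on the log2 scale. Of 20 genes for degradation of p21, p27 and p57, 2 rose and 2 fell, whereas 5 fell and no rise was called after median ratio scaling. CDC20 and DDB1, a subunit of the CRL4 ligase, fell by 0.58 and 0.21 on the log2 scale, and the E2 enzyme CDC34 and the proteasome activator PSME3 rose with log2 fold changes of 0.23 and 0.21. The 3 calls other than CDC20 had limma adjusted p-values from 0.0294 to 0.042. SKP2, the F-box protein that recognises p27, overlapped between groups at 36.48, 40.41 and 41.09 against 38.14, 40.69 and 42.85 TPM. In the Polycomb list EED was the 1 call among 14, with a log2 fold change of 0.25, and it was not called after median ratio scaling. RING1, BMI1 and RNF2 did not pass (limma adjusted p = 0.0882, 0.203 and 0.288). Among 12 other CDK inhibitors and modifiers, CDKN3, a phosphatase that acts on CDKs and shares only its symbol series with the 7 members, fell from 97.9 ± 5.57 to 60.3 ± 1.17 TPM (limma adjusted p = 0.000808), and PKMYT1, HEXIM1 and CDKN2AIP did not pass (limma adjusted p = 0.0551, 0.105 and 0.282).

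**Figure D5:**
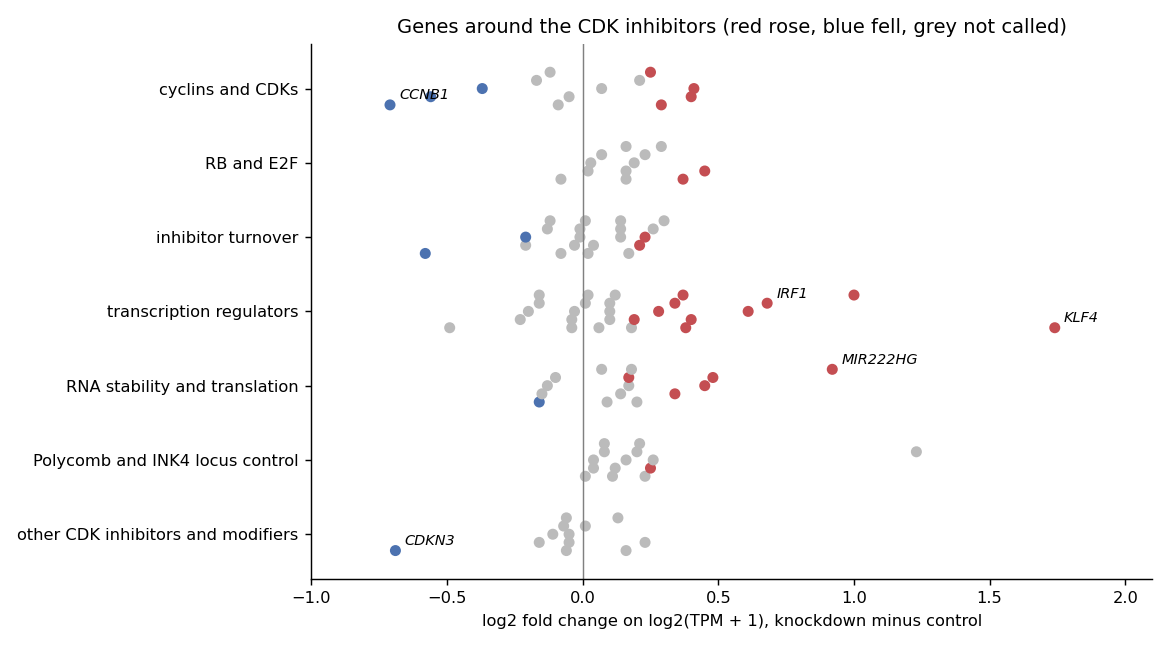
Log2 fold change (knockdown minus control, on log2(TPM + 1)) of 112 tested genes in 7 lists around the CDK inhibitors, 1 point per gene; red rose, blue fell and grey did not pass limma at an adjusted p under 0.05. KLF4 and MIR222HG lie far to the right among the called genes, and CCNB1 and CDKN3 lie farthest to the left.

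The genes whose levels followed CDKN1B most closely over the 6 libraries were ZNF808, RIMKLB and UQCRQ (Pearson r = 0.998, 0.996 and 0.995 on log2(TPM + 1)). For CDKN1A they were PPAN, XKR8 and HIST2H2BF (r = 0.997 for each). As descriptions over 6 libraries in 2 groups, these values mostly follow the step between groups: 533 genes reached r = 0.95 with CDKN1B and 359 with CDKN1A.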

How the data were processed

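The authors deposited 1 table of TPM values with a column per library, gene lengths and gene annotations. The tools fastp, HISAT and RSEM are named, without versions or roles, per the submitters' processing notes. The notes name the mouse build GRCm38.p5, while 58883 of 60027 gene IDs are human Ensembl IDs, so coordinates were taken from GENCODE 29 (GRCh38) by gene ID and none from the table. TPM was matched to samples by group and replicate number. Other columns hold gene length in bases, as deposited, which was not used for tests. Genes with a mean of at least 1 TPM were tested on log2(TPM + 1) by limma 3.58.1 in R 4.3.3, using a trended prior and no covariates, and p-values were adjusted by the Benjamini-Hochberg method over all 15755 genes. Folds on this scale understate changes of low genes. The test was first checked on simulated data with independent noise for each gene. No scaling shift between libraries was simulated, so that check cannot bear on the choice of scaling. Members and lists were chosen with earlier results of these data known. Named genes are the 7 members, up to 4 genes with the smallest p per list, fixed partners, genes within 50 kb of a member with a mean of at least 1 TPM and the 3 genes most correlated with each called member. As alternatives, the pseudocount was set to 0.1 and the filter dropped or raised to 5 TPM; further ones were 3 other scalings, a prior without trend, the replicate block and each library left out. Some genes that this rule names are not reported here.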

Additional observations from a re-analysis of the deposited data

How the results depend on the processing

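CDKN1B stayed called in all 14 alternatives. The CDKN1A call was kept with a pseudocount of 0.1 and a filter at 5 TPM. It was lost, at a log2 fold change of 0.18, without the filter (limma adjusted p = 0.0634) and with a prior spread without trend (adjusted p = 0.107). It was lost at 0.07 with median ratio scaling and quantile normalization, at 0.10 without mitochondrial and ribosomal protein genes, and at 0.16 to 0.20 with 1 library left out. In each of these settings 1 member was called in place of 2. CDKN1C, never called, changed sign to -0.07 with median ratio scaling, -0.08 with quantile normalization and -0.05 without mitochondrial and ribosomal protein genes, and it lay between -0.04 and 0.07 with 1 library left out. With 1 library left out, 1152 to 1633 genes were called over the whole table and 16 to 23 over the pathway lists, in fits with fewer samples; the main counts were 2327 and 31, and both dropped by more than 1.5 times for each library except knockdown replicate 1. Without the filter, with more genes tested, 1475 genes were called. With the replicate block 1466 genes and 1 member were called, and CDKN1A was lost at 0.18 (adjusted p = 0.0708). Replicate numbers are not shown to pair the libraries: deviations of same-numbered libraries correlated at 0.0172, -0.012 and 0.0448, and control replicate 1 correlated best with knockdown replicate 2. Depth is unknown and limits what can be said of values under 1 TPM.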
